A study of Mus musculus with 15 samples.

Results

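The genes described here encode the enzymes of fatty acid oxidation in mitochondria and peroxisomes, the proteins that activate, carry and bind fatty acids, and target genes and regulators of the peroxisome proliferator-activated receptors (PPARs). Members were chosen by name from a list of 38 genes, and 36 of them had a row both in the count table, which held 32544 gene symbols, and in the authors' log2 table. The remaining pair, *Acaa1b* and *Fabp1*, had a row in the count table alone and was not tested. All 36 passed the expression filter, and 17477 genes were tested in all.

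RNA of mouse colon was compared in 15 libraries of 3 *Tert* genotypes. WT mice carried the intact gene for telomerase reverse transcriptase, the protein subunit that copies telomere repeats. VAA mice carried a *Tert* allele called VAA, known as a catalytically inactive form, and KO mice had both copies of *Tert* deleted (TERT-/-). Each genotype had 2 untreated libraries and 3 from mice given DSS (dextran sulfate sodium), a chemical that damages colon epithelium and brings on colitis, at 3% in drinking water for 4 days and then normal water for 4 days, with colon taken on day 8. The mice were 8 to 12 weeks old. Neither the extent of the deletion, nor the strain, nor whether libraries of a group came from separate animals is given in the labels, so *P* values measure the spread between these libraries, which may be technical.

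Beta oxidation shortens an acyl chain in repeated rounds of dehydrogenation, hydration, a further dehydrogenation and thiolysis. Mitochondria take up long chains through the carnitine shuttle and pass the electrons of the first step to the respiratory chain, while peroxisomes shorten very long and branched chains and pass these electrons to oxygen. PPARs are nuclear receptors that bind fatty acids and their derivatives, pair with retinoid X receptors and raise the transcription of many of these genes, and colonocytes are known to burn butyrate by mitochondrial beta oxidation.

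The libraries held 10.6 M to 17.5 M counts. *Tert* had 23 to 40 counts in WT, 7 to 29 in VAA and 0 or 1 in KO libraries. The Y-linked gene *Ddx3y* had 914 and 868 counts in the second untreated library of WT and of KO, against 5 to 20 in the other 13, and sex is not given in the labels. Markers of colon epithelium summed to between 6470 and 11100 CPM (scaled counts per M) in the 15 libraries, and distal Hox genes to between 271 and 512 CPM. Adipocyte markers, 8 genes, summed to 283 CPM in WT DSS library 1 and 255 CPM in KO DSS library 2, against 19.1 to 87.9 CPM in the other 13, with 0 or 1 of the 8 genes at 0 in each library. Since the tissue was sequenced in bulk, fewer cells of a type and less RNA per cell cannot be told apart.

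PPARs bind a direct repeat of a half-site with a spacer of 1 base, and the sequences before the members' start sites were read for it because the members are grouped here as PPAR targets. RefSeq promoters (GRCm38.p6, 300 bases each) were matched for 32 of the 38 listed genes, giving 35 windows. The motif AGGTCANAGGTCA, where N is any base, was searched on both strands. An exact copy was present in 0 of the 35 windows and in 13 of all 32851 windows (0.0396%). With up to 2 mismatches it was present in 4 of the 35 (11.4%) and in 1268 of all windows (3.86%), and with up to 1 mismatch in 1 of the 35 (2.86%) and in 182 of all (0.554%). The estrogen-related receptor motif TNAAGGTCA, which overlaps the half-site and was searched on both strands, was found in 0 of the 35 and in 421 of all windows (1.28%). Letters that match a motif are a description and not a site, and no match says only that these letters are not in these windows. The 4 matches are shown because they are the stretches nearest to the receptor's motif, each read along its gene's strand, with the position of the first base counted from the start site.
*Fabp1*, 1 mismatch, position -67, minus strand of the gene: TGACCTATGGCCT
*Plin2*, 2 mismatches, position -225, minus strand of the gene: GGACCCCTGACCT
*Etfa*, 2 mismatches, position -77, minus strand of the gene: TTACCTTTGCCCT
*Echs1*, 2 mismatches, position -83, plus strand of the gene: AGGTCACGGGTCC

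The 250 bases before the start of 3 genes are shown because the results below turn on them and because they differ in this motif. *Plin2* (chr4:86670060-86670309, minus strand, GRCm38.p6) holds the match with 2 mismatches, in capitals, and *Ppargc1a* (chr5:51567726-51567975, minus strand) and *Ehhadh* (chr16:21787835-21788084, minus strand) hold none.
*Plin2*: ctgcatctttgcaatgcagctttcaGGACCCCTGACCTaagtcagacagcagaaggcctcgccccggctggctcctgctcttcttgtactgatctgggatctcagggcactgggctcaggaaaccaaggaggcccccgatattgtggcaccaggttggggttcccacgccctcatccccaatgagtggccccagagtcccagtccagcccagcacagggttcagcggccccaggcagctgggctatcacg
*Ppargc1a*: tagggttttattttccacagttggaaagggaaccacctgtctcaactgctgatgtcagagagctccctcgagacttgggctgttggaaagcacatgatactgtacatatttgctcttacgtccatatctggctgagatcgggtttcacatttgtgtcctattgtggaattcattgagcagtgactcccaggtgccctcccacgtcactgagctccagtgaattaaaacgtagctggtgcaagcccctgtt
*Ehhadh*: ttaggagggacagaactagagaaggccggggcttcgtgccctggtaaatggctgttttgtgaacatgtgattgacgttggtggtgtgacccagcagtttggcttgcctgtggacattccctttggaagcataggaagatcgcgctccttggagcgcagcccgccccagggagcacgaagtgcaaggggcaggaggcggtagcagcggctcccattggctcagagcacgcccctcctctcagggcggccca

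In the first comparison, DSS against untreated colon, more members were called lower than higher in WT and in VAA mice, and in each genotype most members were not called. The test was edgeR's quasi-likelihood test over all 17477 genes, and genes whose *P* was under 0.05 after Benjamini-Hochberg adjustment are referred to as called. In WT, 12 of the 36 members were called, 4 higher and 8 lower, where 26.6% of all genes were called, 14.1% higher and 12.5% lower. In VAA, 16 were called, 3 higher and 13 lower, where 20.4% of all genes were called, 10.9% higher and 9.54% lower. In KO, 2 were called, both lower, where 10.7% of all genes were called, 5.59% higher and 5.06% lower. The members' median log2 fold change was -0.12 in WT, -0.33 in VAA and -0.15 in KO, and that of all genes was -0.012, 0.057 and 0.0031. Averaged over the genotypes, 21 were called, 6 higher and 15 lower, where 42.6% of all genes were called, 22.5% higher and 20% lower.

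Several of these counts rested on single libraries. Without either untreated WT library the WT count was 7 or 6, and without VAA untreated library 1 or 2 the VAA count was 7 or 10. The KO count was 0 without either untreated KO library, 0 without KO DSS library 2 and 1 without KO DSS library 1 or 3, and it was 9 without VAA DSS library 3, the shallowest of the 15. Without both libraries with *Ddx3y* the counts were 6 in WT, 13 in VAA and 0 in KO, and without the pair highest in adipocyte markers they were 9, 14 and 0. Without WT untreated library 1 the WT calls of *Acadl*, *Acadm*, *Acsl4*, *Ppara* and *Pparg* were lost, and without WT untreated library 2 those of *Acadl*, *Acadm*, *Acads*, *Ehhadh*, *Plin2* and *Ppara*. The WT call of *Acadm* was also lost without VAA untreated library 2, WT DSS library 2 or KO DSS library 3, that of *Acadl* without WT DSS library 1, and that of *Ppara* without WT DSS library 2 or 3. In VAA, leaving out untreated library 1 lost *Acadl*, *Acads*, *Acadvl*, *Acsl5*, *Decr1*, *Ech1*, *Plin2*, *Ppara* and *Ppargc1a*, and leaving out untreated library 2 lost *Acaa2*, *Acadvl*, *Acsl5*, *Decr1*, *Ech1* and *Plin2*. The VAA call of *Acadvl* was also lost without WT untreated library 2 or VAA DSS library 2 or 3, that of *Acsl5* without WT untreated library 1 or VAA DSS library 1 or 2, and that of *Decr1* without VAA DSS library 1. The WT calls of *Acsl3*, *Acsl5*, *Hadh* and *Ppargc1a* and the VAA calls of *Acsl3*, *Acadm*, *Hadh* and *Ehhadh* were kept under all 25 alternatives tried.

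Whether the DSS effect of a member differed in KO or VAA from that in WT was tested as an interaction, given after the genotype comparisons. The plot of log2 fold changes by role shows each member's change with its standard error.

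**Figure D1:**
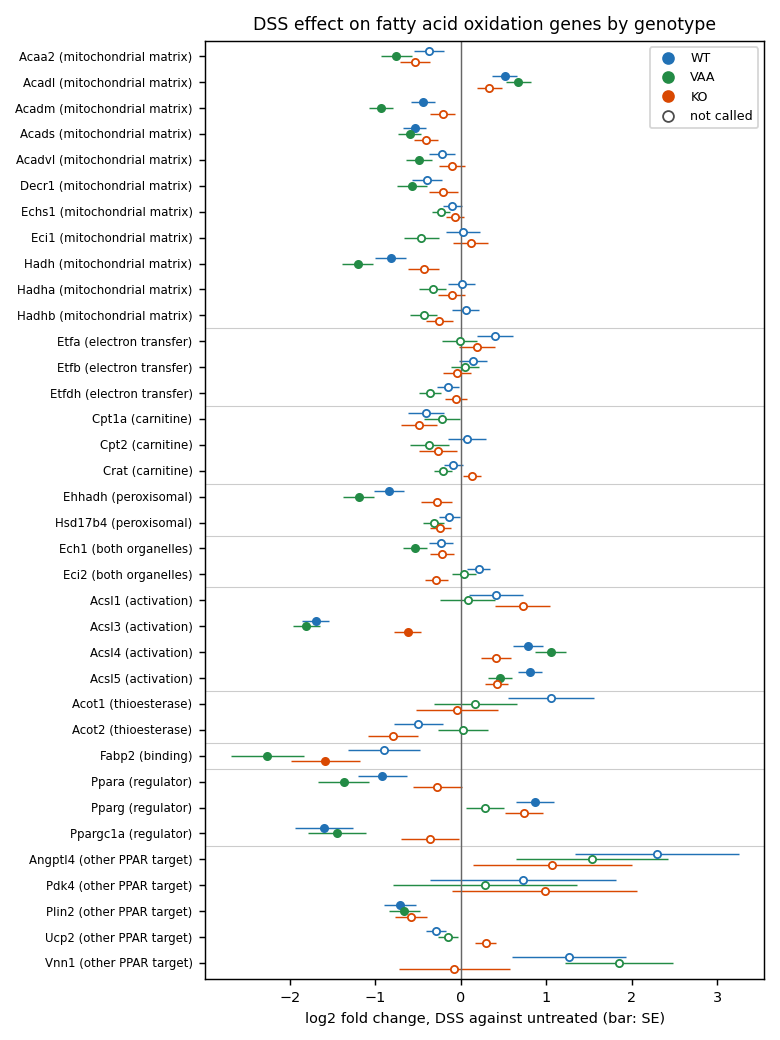
Log2 fold change of each tested member, DSS against untreated, in WT, VAA and KO colon, ordered by role, with filled points for called genes. Bars are 1 standard error, worked back from the F statistic of edgeR's test. *Acsl3*, *Fabp2*, *Ppargc1a*, *Hadh* and *Ehhadh* lie below 0 in all 3 genotypes, and *Acsl4*, *Acsl5*, *Acadl* and *Pparg* above 0.

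Among the regulators, the receptor *Ppara* and the coactivator *Ppargc1a* fell with DSS in WT and in VAA, while the receptor *Pparg* rose in WT. *Ppara*, the receptor that drives fatty acid oxidation genes in liver, stood at 11.2 and 9.69 CPM in WT, 10.4 and 8.01 in VAA and 12.5 and 9.14 in KO untreated, and at 7.37, 3.76 and 5.43 in WT, 3.49, 2.95 and 4.32 in VAA and 6.9, 10.6 and 9.29 in KO with DSS. All 6 WT and VAA libraries with DSS were below the 4 untreated libraries of these genotypes, and KO libraries with DSS overlapped the untreated ones. Its log2 fold change with DSS was -0.92 ± 0.29 in WT (SE, adjusted *P* = 0.030), -1.37 ± 0.29 in VAA (adjusted *P* = 0.0048) and -0.28 ± 0.28 in KO (adjusted *P* = 0.58).

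*Ppargc1a* encodes PGC-1alpha, a coactivator of PPARs and estrogen-related receptors that raises mitochondrial genes. It stood at 133 and 103 CPM in WT, 91.7 and 91.5 in VAA and 97.3 and 125 in KO untreated, and at 38.7, 23.4 and 53.6 in WT, 25.7, 53 and 21.5 in VAA and 90.6, 84 and 84.9 in KO with DSS. With DSS, WT and VAA libraries lay between 21.5 and 53.6 CPM, below every untreated library, and those of KO between 84.0 and 90.6 CPM, just below the lowest untreated value of 91.5 CPM. The log2 fold change was -1.60 ± 0.34 in WT (adjusted *P* = 0.0044), -1.45 ± 0.34 in VAA (adjusted *P* = 0.0087) and -0.36 ± 0.34 in KO (adjusted *P* = 0.54).

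The receptor *Pparg*, abundant in adipocytes and also expressed by colon epithelium, moved the other way. It stood at 19.2 and 28.8 CPM in WT, 22.3 and 31.4 in VAA and 29.2 and 29.7 in KO untreated, and at 45, 44.6 and 42.1 in WT, 30.9, 41 and 26 in VAA and 41.1, 57.1 and 48.8 in KO with DSS. Every WT and KO library with DSS was above every untreated library, and VAA libraries with DSS overlapped them. *Pparg* was 0.87 ± 0.23 higher on the log2 scale in WT (adjusted *P* = 0.013), and its values of 0.74 ± 0.22 in KO and 0.29 ± 0.22 in VAA were not called (adjusted *P* = 0.052 and 0.41). DESeq2 called *Pparg* higher in KO (0.728).

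**Figure D2:**
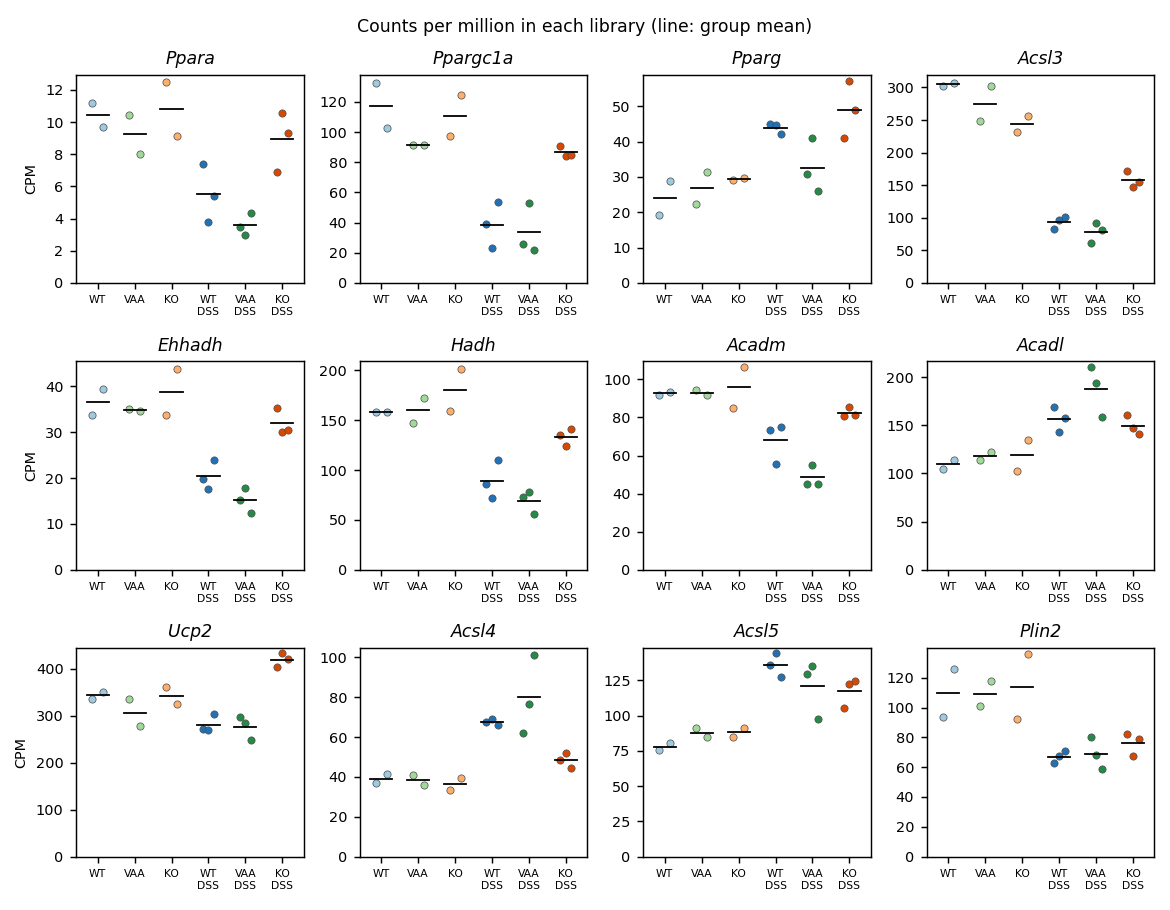
CPM of 12 members in every library, 1 point per library with a line at each group mean, by genotype and treatment, each panel with its own axis. WT and VAA libraries with DSS are low for *Ppara*, *Ppargc1a*, *Acsl3*, *Ehhadh*, *Hadh* and *Acadm*, with KO libraries nearer to the untreated values, and KO libraries with DSS are high for *Ucp2*.

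Long-chain acyl-CoA synthetases activate fatty acids to acyl-CoA, the form that is oxidised or stored, and the 4 measured here split by direction. *Acsl3*, a synthetase of the endoplasmic reticulum and lipid droplets, was the member with the smallest *P* in each of the 3 genotypes. Per kilobase of all annotated exon bases merged, it had the highest level of all members in untreated WT colon, 70 CPM per kb. By mean CPM, without length, *Ucp2* was higher there, at 344 against 305. *Acsl3* stood at 303 and 308 CPM in WT, 249 and 302 in VAA and 232 and 256 in KO untreated, and at 83.2, 96.4 and 102 in WT, 61.5, 92.1 and 81.8 in VAA and 171, 148 and 155 in KO with DSS. All DSS libraries were below all untreated libraries, with KO between the other DSS libraries and the untreated ones. Its log2 fold change was -1.70 ± 0.16 in WT (adjusted *P* = 2e-05), -1.81 ± 0.16 in VAA (adjusted *P* = 1e-05) and -0.62 ± 0.16 in KO (adjusted *P* = 0.025).

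*Acsl4*, which prefers polyunsaturated chains such as arachidonic acid, rose. It stood at 37.1 and 41.3 CPM in WT, 41.1 and 35.9 in VAA and 33.2 and 39.4 in KO untreated, and at 67.5, 68.8 and 66.1 in WT, 61.9, 76.6 and 101 in VAA and 48.5, 51.9 and 44.5 in KO with DSS. Every DSS library was above every untreated library, with KO the lowest of the DSS groups and VAA library 3 the highest. The log2 fold change was 0.79 ± 0.17 in WT (adjusted *P* = 0.0058), 1.05 ± 0.18 in VAA (adjusted *P* = 0.00099) and 0.41 ± 0.17 in KO, which was not called (adjusted *P* = 0.15).

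*Acsl5*, the synthetase of intestinal epithelium, lay between 75.5 and 91.3 CPM in the 6 untreated and between 97.7 and 144 CPM in the 9 DSS libraries, with no overlap. It rose by 0.80 ± 0.14 in WT (adjusted *P* = 0.0013) and 0.46 ± 0.14 in VAA (adjusted *P* = 0.032) on the log2 scale, and its KO value of 0.42 ± 0.14 was not called. DESeq2 called *Acsl5* higher in KO (0.41). *Acsl1*, the main synthetase of adipose tissue, liver and heart, was not called in any comparison, and its values are given with the adipocyte markers.

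Fatty acids and acyl-CoA are bound or split by smaller families, of which *Fabp2* changed. *Fabp2*, the intestinal fatty acid binding protein, is mainly a gene of small intestine and was low here, at 2.19 and 3.63 CPM in WT, 6.23 and 3.41 in VAA and 6.6 and 5.35 in KO untreated, and at 1.31, 1.76 and 1.59 in WT, 0.843, 1.56 and 0.48 in VAA and 1.63, 1.64 and 2.68 in KO with DSS. Every DSS library was below both untreated libraries of its own genotype. The summed level of 5 other small intestine markers went the other way, from 10.6 to 17 CPM in untreated libraries to 25.6 to 133 CPM with DSS. *Fabp2* fell by 2.27 ± 0.43 in VAA (adjusted *P* = 0.0021) and by 1.59 ± 0.40 in KO (adjusted *P* = 0.026), and its value in WT was -0.90 ± 0.42 (adjusted *P* = 0.13). *Fabp1*, the liver fatty acid binding protein, was listed at 0 counts in all 15 libraries, and since the transcripts counted are not known, this may be a failed estimate and is not read as absence.

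The thioesterases *Acot1*, of the cytosol, and *Acot2*, of mitochondria, split acyl-CoA into fatty acid and coenzyme A, and they are near-identical neighbours on chromosome 12, so the split of counts between them is uncertain. *Acot1* stood at 2.39 and 1.48 CPM in WT, 2.65 and 3.32 in VAA and 3.69 and 3.64 in KO untreated, and at 3.36, 4.14 and 4.6 in WT, 6.2, 1.73 and 2.02 in VAA and 2.33, 3.41 and 4.91 in KO with DSS. *Acot2* stood at 7.93 and 8.68 CPM in WT, 5.8 and 8.35 in VAA and 8.15 and 8.85 in KO untreated, and at 5.69, 4.6 and 7.32 in WT, 5.48, 5.78 and 10.5 in VAA and 4.73, 4.71 and 5.28 in KO with DSS. Within a genotype, DSS libraries were above untreated ones for *Acot1* in WT and below them for *Acot2* in WT and KO, and the other groups overlapped. Averaged over genotypes their log2 fold changes were 0.39 and -0.42, neither called (adjusted *P* = 0.28 and 0.058). *Acot2* was called, lower, averaged over genotypes with limma (-0.50, adjusted *P* = 0.023).

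The carnitine shuttle carries long chains into the mitochondrion, and *Cpt1a*, the outer membrane step that malonyl-CoA inhibits, was its only member called for DSS. *Cpt1a* stood at 207 and 295 CPM in WT, 263 and 240 in VAA and 257 and 385 in KO untreated, and at 156, 175 and 235 in WT, 212, 190 and 245 in VAA and 254, 219 and 214 in KO with DSS. DSS and untreated libraries overlapped in WT and in VAA and were apart in KO, and the highest value was that of KO untreated library 2. Averaged over genotypes *Cpt1a* fell by 0.37 ± 0.12 on the log2 scale (adjusted *P* = 0.025), a call that was lost under 7 of 24 alternatives, among them leaving out WT untreated library 2, VAA untreated library 1 or KO untreated library 2. The WT and KO libraries named are the pair high in *Ddx3y*, and every DSS library was low in it. With sex as a covariate in edgeR the average was -0.17 (adjusted *P* = 0.26).

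*Cpt2*, the enzyme that returns the chain to coenzyme A in the matrix, stood at 44.8 and 53.3 CPM in WT, 58.1 and 47.2 in VAA and 58.1 and 67.5 in KO untreated, and at 46.7, 54.2 and 53.6 in WT, 52, 44.9 and 25.2 in VAA and 51.7, 52.7 and 51.8 in KO with DSS. The value of VAA DSS library 3 stood apart as the lowest, and the average log2 fold change was -0.19 (adjusted *P* = 0.26). *Crat*, which moves short chains between carnitine and coenzyme A, lay within 35.4 to 52.2 CPM in all 15 libraries and was not called for DSS.

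Electron transfer flavoprotein (*Etfa*, *Etfb*) and its dehydrogenase (*Etfdh*) pass electrons from the acyl-CoA dehydrogenases to ubiquinone. With edgeR 0 of the 3 were called in WT, VAA, KO or their average. At an unadjusted *P* under 0.05 the count was 0, 1, 0 and 1, beside 6804, 5740, 4655 and 8765 of all 17477 genes. DESeq2 called *Etfdh* in VAA (-0.37) and in the average (-0.19), and limma called it in the average (-0.26). *Etfdh* stood at 91.2 and 90.3 CPM in WT, 98.3 and 89.2 in VAA and 95.2 and 93.4 in KO untreated, and at 86.9, 77.7 and 80.5 in WT, 79.3, 81.2 and 58.9 in VAA and 93.5, 90.1 and 88.4 in KO with DSS. *Etfa* stood at 58.7 and 63.9 CPM in WT, 69.8 and 72.7 in VAA and 64.3 and 80.5 in KO untreated, and at 83.4, 70.3 and 89.2 in WT, 79, 84.9 and 47.1 in VAA and 90.0, 84.9 and 72.8 in KO with DSS. For both genes VAA DSS library 3 was the lowest of the 15, and for *Etfa* the other 8 DSS libraries lay between 70.3 and 90.0 CPM, overlapping the untreated range of 58.7 to 80.5.

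The mitochondrial matrix enzymes did not move as a block. Of 11 tested, 1 was called higher and 3 lower in WT, 1 higher and 6 lower in VAA, and 0 in KO, where 4 had an unadjusted *P* under 0.05 and DESeq2 and limma each called *Acaa2* (-0.55 and -0.68) and *Acads* (-0.41 and -0.55). Of all 17477 genes, 26.6%, 20.4% and 10.7% were called in WT, VAA and KO, and 4655 had an unadjusted *P* under 0.05 in KO. The median log2 fold change of the 11 enzymes was -0.22 in WT, -0.49 in VAA and -0.20 in KO. Enzymes for medium and short chains were among those that fell, and the long-chain dehydrogenase *Acadl* was the member that rose.

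*Hadh*, the short and medium chain 3-hydroxyacyl-CoA dehydrogenase of the third step, had the smallest *P* of the matrix enzymes in WT, in VAA and averaged over genotypes. It stood at 159 and 158 CPM in WT, 147 and 173 in VAA and 159 and 202 in KO untreated, and at 86.1, 72.3 and 110 in WT, 73, 77.8 and 56.1 in VAA and 135, 124 and 141 in KO with DSS. With DSS, values of WT and VAA lay between 56.1 and 110 CPM, and KO between 124 and 141, all below the lowest untreated value of 147. *Hadh* fell by 0.82 ± 0.18 in WT (adjusted *P* = 0.0049) and 1.21 ± 0.18 in VAA (adjusted *P* = 0.00041) on the log2 scale, and its KO value was -0.44 ± 0.18 (adjusted *P* = 0.14).

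The medium chain dehydrogenase *Acadm* catalyses the first step for medium chains. It stood at 91.9 and 93.6 CPM in WT, 94.2 and 91.6 in VAA and 85.1 and 106 in KO untreated, and at 73.4, 55.8 and 75 in WT, 45.1, 55.2 and 45.2 in VAA and 81, 85.5 and 81.3 in KO with DSS. WT and VAA libraries with DSS were below all untreated libraries, while 1 KO library with DSS, at 85.5 CPM, lay above the lowest untreated value of 85.1 CPM. *Acadm* fell by 0.45 ± 0.14 in WT (adjusted *P* = 0.036) and 0.94 ± 0.14 in VAA (adjusted *P* = 0.00052), and its KO value was -0.21 ± 0.14 (adjusted *P* = 0.37). The WT call was lost under 11 of 25 alternatives.

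*Acads*, the short chain dehydrogenase that takes butyryl-CoA, stood at 75.2 and 85.1 CPM in WT, 80.9 and 64.7 in VAA and 97.3 and 86.5 in KO untreated, and at 50.3, 53 and 61.8 in WT, 53.2, 48.3 and 42.7 in VAA and 67.2, 73.2 and 67.4 in KO with DSS. Within each genotype, all DSS libraries were below both untreated ones. It fell by 0.54 ± 0.14 in WT (adjusted *P* = 0.012) and 0.60 ± 0.14 in VAA (adjusted *P* = 0.0075), and its KO value was -0.41 ± 0.14 (adjusted *P* = 0.075).

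*Acadl*, the long chain dehydrogenase, rose while the others of its family fell or were not called. It stood at 105 and 114 CPM in WT, 113 and 122 in VAA and 103 and 135 in KO untreated, and at 169, 143 and 157 in WT, 211, 194 and 159 in VAA and 161, 147 and 141 in KO with DSS. All 9 DSS libraries, at 141 CPM or more, were above all 6 untreated libraries. Its log2 fold change was 0.51 ± 0.15 in WT (adjusted *P* = 0.022), 0.67 ± 0.15 in VAA (adjusted *P* = 0.0061) and 0.33 ± 0.15 in KO (adjusted *P* = 0.16). Per kilobase of merged exon bases, *Acadl* had the second highest level of all members in untreated WT colon, 54.9 CPM per kb. In VAA with DSS it had the highest, 93.8 CPM per kb. Both ranks depend on this measure of length.

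Of the other matrix enzymes, *Acaa2*, the thiolase of the last step, *Acadvl*, the very long chain dehydrogenase, and *Decr1*, the dienoyl-CoA reductase for unsaturated chains, fell in VAA by 0.75, 0.49 and 0.57. The isomerase *Eci1* and the hydratase *Echs1* were not called in any DSS comparison. Neither were *Hadha* and *Hadhb*, the subunits of the trifunctional protein, which run head to head on chromosome 5 with overlapping promoter windows (chr5:30154931-30155230 and chr5:30155003-30155302). *Hadha* lay within 125 to 251 CPM and *Hadhb* within 84.9 to 179 CPM in the 15 libraries, each lowest in VAA DSS library 3. DESeq2 called *Hadhb* lower in VAA (-0.445), and limma called *Hadhb* and *Echs1* lower in the average (-0.285 and -0.203).

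In peroxisomes, *Ehhadh* fell and *Hsd17b4* moved little. *Ehhadh* encodes the L-bifunctional enzyme of hydration and dehydrogenation and is a classic PPARalpha target in rodent liver. It stood at 33.8 and 39.5 CPM in WT, 35 and 34.7 in VAA and 33.8 and 43.9 in KO untreated, and at 19.7, 17.6 and 24 in WT, 15.1, 17.9 and 12.4 in VAA and 35.2, 30.2 and 30.4 in KO with DSS. WT and VAA libraries with DSS lay between 12.4 and 24.0 CPM, below every untreated library, and KO libraries with DSS between 30.2 and 35.2, overlapping the untreated range. *Ehhadh* fell by 0.84 ± 0.18 in WT (adjusted *P* = 0.0046) and 1.2 ± 0.18 in VAA (adjusted *P* = 0.00048), and its KO value was -0.28 ± 0.18 (adjusted *P* = 0.34).

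*Hsd17b4*, the D-bifunctional enzyme for branched and very long chains, stood at 45.6 and 47.7 CPM in WT, 46.4 and 46.6 in VAA and 50.1 and 51.3 in KO untreated, and at 40.8, 42.8 and 44 in WT, 41.4, 38.5 and 31.8 in VAA and 39.6, 42.5 and 46.8 in KO with DSS. Only averaged over genotypes was it called, with a fall of 0.23 ± 0.07 (adjusted *P* = 0.019), a call that was lost without untreated WT library 2. The call was also lost with sex as a covariate in edgeR (-0.21, adjusted *P* = 0.071). *Acaa1b*, a peroxisomal thiolase with a near-identical copy in *Acaa1a*, had counts of 0 and 1 in untreated WT, 6 and 1 in untreated VAA and 2 and 1 in untreated KO. With DSS it had 7, 0 and 1 counts in WT, 0, 2 and 1 in VAA and 0, 20 and 2 in KO, the 20 in KO library 2, one of the pair with high adipocyte markers. Its level was too low to compare groups.

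*Ech1* and *Eci2* carry signals for both organelles. *Ech1*, a dienoyl-CoA isomerase, stood at 74 and 71.8 CPM in WT, 72.1 and 75 in VAA and 79.6 and 91.5 in KO untreated, and at 62.1, 59 and 65.7 in WT, 52.2, 58.9 and 40.8 in VAA and 79.4, 68 and 72.6 in KO with DSS. It fell in VAA by 0.54 ± 0.14 (adjusted *P* = 0.015), where all 3 DSS libraries were below both untreated ones, and was not called in WT or KO (-0.23 and -0.22). *Eci2*, an enoyl-CoA isomerase, stood at 22.7 and 26 CPM in WT, 26.8 and 28.3 in VAA and 28.2 and 27.7 in KO untreated, and at 26.1, 26.7 and 31.5 in WT, 27.6, 25.9 and 31.1 in VAA and 21, 22.6 and 25.1 in KO with DSS. With DSS it was above both untreated libraries in WT, overlapped them in VAA and was below both in KO, and it was not called in any comparison.

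Mitochondrial and peroxisomal enzymes were then set side by side. The summed CPM of the 11 matrix enzymes, a level, was 1040 to 1300 in untreated libraries, 875 to 1010 in WT, 715 to 940 in VAA and 1070 to 1080 in KO with DSS. The summed CPM of the 3 peroxisomal members was 79.4 to 95.3 in untreated libraries, 60.4 to 68.0 in WT, 44.3 to 56.5 in VAA and 74.0 to 77.4 in KO with DSS. The ratio of the sums was 12.3 to 13.7 in untreated libraries, 15.9, 14.5 and 14.8 in WT, 16.6, 16.1 and 16.2 in VAA and 14.4, 14.5 and 13.8 in KO with DSS. Every DSS library was above every untreated library. The matrix sum holds *Acadl*, the matrix member that rose, and the peroxisomal sum is nearly all *Ehhadh* and *Hsd17b4*. With *Acadl* left out of the sum, an alternative chosen after seeing the data, the ratio was 10.9 to 12.3 in untreated libraries, 13.1, 12.1 and 12.5 in WT, 12.9, 12.6 and 12.6 in VAA and 12.3, 12.5 and 12.0 in KO with DSS. DSS libraries were then above the untreated ones of their own genotype in WT and VAA, and overlapped them in KO. No test was made of a score over the members.

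A longer list of 24 other peroxisomal enzymes and transporters that were tested had a median log2 fold change of -0.081 in WT, -0.093 in VAA and -0.069 in KO. Of these, 1 was called higher and 5 lower in WT, 2 higher and 4 lower in VAA and 1 lower in KO. These are 25%, 25% and 4.17% of the list, beside 26.6%, 20.4% and 10.7% of all genes. By smallest *P* over the average, *Acot6*, a peroxisomal thioesterase, fell by 1.42 ± 0.18 (adjusted *P* = 4.5e-05), *Acaa1a*, the peroxisomal thiolase, by 0.43 ± 0.07 (adjusted *P* = 0.0002), and *Hacl1*, which shortens branched chains by alpha oxidation, by 0.48 ± 0.09 (adjusted *P* = 0.00072). *Acox2*, a branched chain acyl-CoA oxidase named after its values were seen as the list's one call of higher level in WT, was 2.13 ± 0.48 higher there. The peroxins, which build the organelle, had 1 higher and 1 lower of 16 in WT, 1 higher in VAA and medians of -0.086, -0.12 and -0.022 in WT, VAA and KO. Shares of the peroxins called were 12.5%, 6.25% and 0%.

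The 13 other mitochondrial genes, for propionyl-CoA and further acyl-CoA steps, had 4 called lower in WT, 6 in VAA and 3 in KO (30.8%, 46.2% and 23.1% of the list), and medians of -0.40, -0.62 and -0.26. *Pcca* and *Pccb*, the subunits of propionyl-CoA carboxylase, fell by 0.78 ± 0.08 (adjusted *P* = 5.7e-06) and 0.97 ± 0.11 (adjusted *P* = 1.8e-05) averaged over genotypes, and *Acad10*, a member of the dehydrogenase family, by 0.83 ± 0.11 (adjusted *P* = 5.3e-05). Genes of mitochondrial content outside this pathway, such as import and outer membrane proteins, had 6 of 12 called higher in WT, 1 in VAA and 1 in KO, and medians of 0.48, 0.23 and 0.21. These calls are 50%, 8.33% and 8.33% of the list, beside 26.6%, 20.4% and 10.7% of all genes. The summed level of the content genes was 1740 to 1980 CPM in untreated libraries, 2450 to 2630 in WT, 1610 to 2370 in VAA and 2130 to 2270 in KO with DSS. In the plot by organelle, matrix enzymes and the wider peroxisomal list overlap over most of their range.

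**Figure D3:**
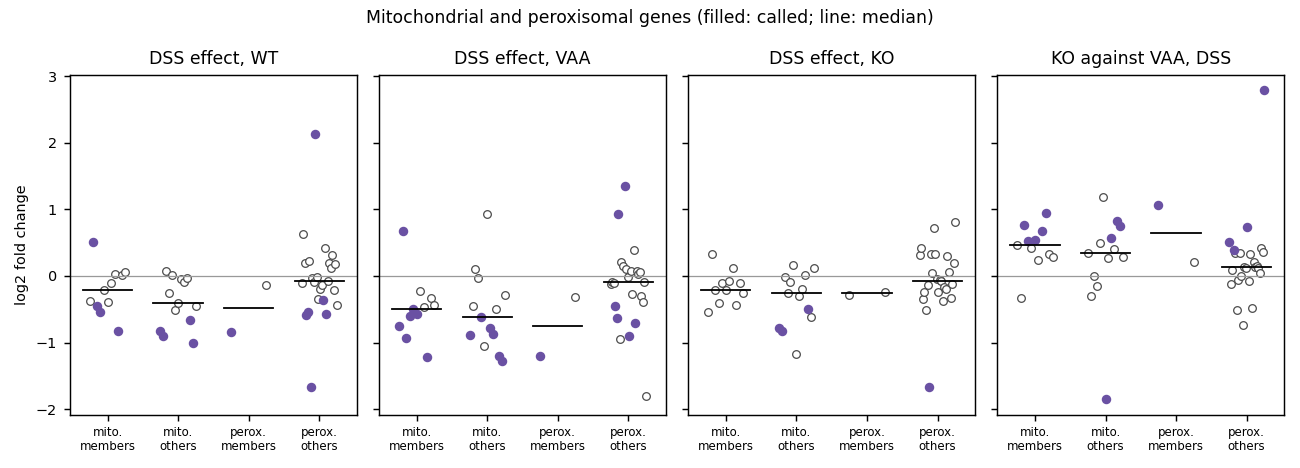
Log2 fold changes of single genes, grouped as mitochondrial matrix members, other mitochondrial genes, peroxisomal members and other peroxisomal genes, for DSS in each genotype and for KO against VAA with DSS, with filled points for called genes and a line at each list's median. Medians of the matrix members lie at -0.22, -0.49 and -0.20 for DSS in WT, VAA and KO and at 0.46 for KO against VAA.

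Levels of absorptive colonocyte markers were lower with DSS in each genotype. Over 6 markers the sum was 3430 to 4330 CPM in untreated libraries, 1540 to 2120 in WT, 1610 to 1980 in VAA and 1800 to 3140 in KO with DSS, and 0 markers were at 0 in any library. The 8 epithelial markers summed to 6990 to 8660 CPM in untreated libraries, 7340 to 7810 in WT, 6470 to 7980 in VAA and 9620 to 11100 in KO with DSS, and 0 were at 0. The 7 neutrophil markers summed to 78 to 118 CPM in untreated libraries, 322 to 397 in WT, 378 to 749 in VAA and 110 to 153 in KO with DSS, and 1 to 3 were at 0 in each untreated library. The 6 smooth muscle markers summed to 5390 to 6090 CPM in WT, 3910 to 5100 in VAA and 3400 to 3970 in KO untreated. With DSS they summed to 515 to 843 CPM in WT, 606 to 2160 in VAA and 530 to 1740 in KO. Every DSS library was thus below every untreated library in smooth muscle markers. The part of these marker lists in the DSS results was not tested.

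PPAR targets outside oxidation did not move together. *Plin2*, which coats lipid droplets, fell, while *Angptl4*, a secreted inhibitor of lipoprotein lipase, and *Vnn1*, a pantetheinase, were called higher in the average. *Plin2* stood at 93.5 and 126 CPM in WT, 101 and 118 in VAA and 92.2 and 136 in KO untreated, and at 62.9, 67.2 and 70.9 in WT, 80.1, 68.5 and 58.6 in VAA and 82.5, 67.3 and 78.8 in KO with DSS. All DSS libraries were below all untreated ones. Its log2 fold change was -0.71 ± 0.18 in WT (adjusted *P* = 0.013), -0.66 ± 0.18 in VAA (adjusted *P* = 0.021) and -0.58 ± 0.18 in KO (adjusted *P* = 0.059). DESeq2 and limma each called *Plin2* lower in KO (-0.597 and -0.70). With sex as a covariate in edgeR it was -0.45 in WT (adjusted *P* = 0.064) and -0.31 in KO (adjusted *P* = 0.27). In VAA it was then -0.66 (adjusted *P* = 0.0061).

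*Angptl4* stood at 0.957 and 1.55 CPM in WT, 4.08 and 1.53 in VAA and 1.16 and 1.93 in KO untreated, and at 8.68, 4.45 and 5.49 in WT, 7.65, 6.65 and 10.6 in VAA and 0.543, 8.53 and 0.52 in KO with DSS. Values of WT and VAA with DSS were all above the untreated ones, and in KO library 2 was high while libraries 1 and 3 were below every untreated library. Averaged over genotypes it was 1.64 ± 0.53 higher (adjusted *P* = 0.025), and the call was lost under 9 of 24 alternatives, among them leaving out WT untreated library 1, VAA untreated library 2, KO untreated library 1 or KO DSS library 2. Without the pair of DSS libraries high in adipocyte markers the average was 0.67, and its value was 1.98 in WT, 1.54 in VAA and -1.52 in KO, of which WT and VAA were called.

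*Pdk4*, the kinase that inhibits pyruvate dehydrogenase, and *Acsl1* were high in the same pair of libraries. *Pdk4* stood at 6.29 and 5.45 CPM in WT, 8.23 and 6.64 in VAA and 7.7 and 5.28 in KO untreated, and at 22, 3.45 and 3.78 in WT, 5.06, 3.7 and 18.9 in VAA and 2.64, 33.2 and 2.53 in KO with DSS. The 3 highest values, 33.2, 22.0 and 18.9 CPM, were in KO DSS library 2, WT DSS library 1 and VAA DSS library 3, whose adipocyte sums of 255, 283 and 83.5 CPM were the highest of the DSS libraries. An untreated VAA library had an adipocyte sum of 87.9 CPM, above the 83.5 CPM, while *Pdk4* was at 8.23 and 6.64 CPM in untreated VAA. With DSS *Acsl1* lay at 77.7, 34.3 and 44.2 CPM in WT, 37, 43.9 and 37.5 in VAA and 47.7, 89.3 and 45.3 in KO. In untreated libraries *Acsl1* lay between 34.5 and 40 CPM. Neither gene was called in any comparison, with an average log2 fold change of 0.66 ± 0.62 for *Pdk4* and 0.40 ± 0.18 for *Acsl1*. Without the pair, *Pdk4* was at -0.70 in WT and -1.33 in KO, also not called.

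**Figure D4:**
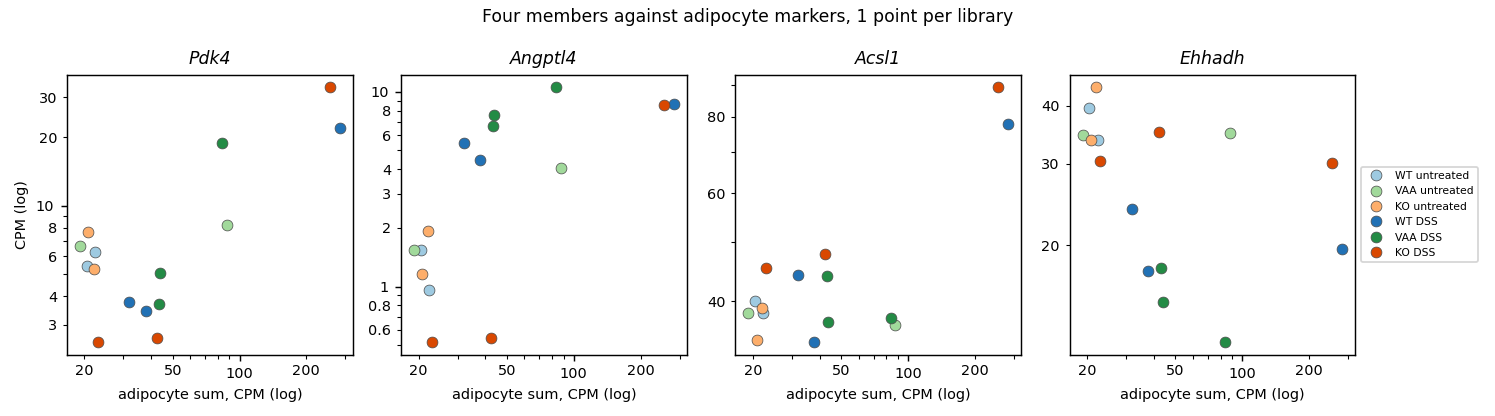
CPM of *Pdk4*, *Angptl4*, *Acsl1* and *Ehhadh* against the summed CPM of 8 adipocyte markers, both axes log, 1 point per library, coloured by group. The 2 libraries with adipocyte sums of 255 and 283 CPM hold the highest *Pdk4* and *Acsl1* values, while *Ehhadh* in the KO one of them, 30.2 CPM, lies with the other KO libraries.

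*Ucp2*, an inner membrane carrier of mitochondria, stood at 336 and 352 CPM in WT, 335 and 278 in VAA and 361 and 325 in KO untreated, and at 271, 269 and 304 in WT, 297, 285 and 248 in VAA and 403, 435 and 422 in KO with DSS. WT libraries with DSS were below and KO libraries above the untreated libraries of their genotype, and neither difference was called (-0.29 ± 0.12 and 0.29 ± 0.12, adjusted *P* = 0.092 and 0.14). DESeq2 called *Ucp2* lower in WT (-0.285). *Vnn1* stood at 0.137 and 0.471 CPM in WT, 0.358 and 0.511 in VAA and 0.323 and 0.714 in KO untreated, and at 1.02, 0.766 and 0.472 in WT, 2.35, 0.752 and 1.63 in VAA and 0.388, 0.478 and 0.595 in KO with DSS. It was the lowest member per kilobase of exon of those tested in untreated WT colon, at 0.126 CPM per kb. Its call in the average, 1.01 ± 0.38 higher (adjusted *P* = 0.044), held under 10 of 24 alternatives. It was lost without WT untreated library 1, VAA untreated library 1 or 2, KO untreated library 1, WT DSS library 1 or 2, VAA DSS library 1 or any of the 3 KO DSS libraries.

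Of 13 other PPAR target genes tested, 1 was called higher and 2 lower in WT, 1 higher and 1 lower in VAA and 1 higher in KO. Shares called in the 3 genotypes were 23.1%, 15.4% and 7.69%, beside 26.6%, 20.4% and 10.7% of all genes. *Creb3l3*, a transcription factor of liver and intestine, rose in all 3, by 2.22 ± 0.37 in WT (adjusted *P* = 0.00098), 2.88 ± 0.39 in VAA (adjusted *P* = 0.00022) and 1.94 ± 0.37 in KO (adjusted *P* = 0.006). Its level was 0.684 to 1.68 CPM in the untreated and 3.62 to 7.86 CPM in the DSS libraries, with no overlap. *Txnip*, an inhibitor of thioredoxin, fell by 1.26 ± 0.31 in WT (adjusted *P* = 0.0096) and 1.18 ± 0.31 in VAA (adjusted *P* = 0.015). *Mgll*, the monoglyceride lipase, fell by 1.11 ± 0.33 in WT (adjusted *P* = 0.027).

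Of 19 other regulators tested, 1 was called higher and 2 lower in WT, 1 higher and 3 lower in VAA and 3 higher in KO. These are 15.8%, 21.1% and 15.8% of the list, beside 26.6%, 20.4% and 10.7% of all genes. The retinoid X receptor *Rxra*, the partner of PPARs, fell by 0.74 ± 0.16 in WT (adjusted *P* = 0.0045). The mitochondrial deacetylase *Sirt3* fell by 0.73 ± 0.16 in VAA (adjusted *P* = 0.0051). *Esrra*, the estrogen-related receptor that works with PGC-1alpha, rose by 0.55 ± 0.15 in KO (adjusted *P* = 0.037), the opposite sign to the *Ppargc1a* values.

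The second comparison set the genotypes against each other in colon with DSS. In KO against WT, 4 of 36 members were called, all higher in KO, where 5.67% of all genes were called, 3.21% higher and 2.46% lower. The members' median was 0.17 against -0.013 for all genes. These were *Ucp2*, *Acsl3*, *Ehhadh* and *Ppargc1a*. Of members that edgeR did not call here, DESeq2 called *Hadh* (0.573, adjusted *P* = 0.022) and *Crat* (0.309, adjusted *P* = 0.028) higher in KO. By limma *Acsl4* was called lower in KO (-0.589, adjusted *P* = 0.034). In KO against VAA, 12 were called higher and 2 lower, 14 in all, where 15.4% of all genes were called, 6.01% higher and 9.41% lower. The median was 0.39 against -0.010. Both comparisons share the KO libraries, so their values are set side by side and are not independent.

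*Ucp2* was 0.58 ± 0.11 higher in KO than in WT (adjusted *P* = 0.011) and 0.60 ± 0.11 higher than in VAA (adjusted *P* = 0.0039). The 3 KO libraries, at 403 to 435 CPM, were above all 12 others. *Acsl3* was 0.75 ± 0.14 higher than in WT (adjusted *P* = 0.012) and 1.01 ± 0.14 higher than in VAA (adjusted *P* = 0.0012), with KO at 148 to 171 CPM and the other DSS libraries at 61.5 to 102. *Ehhadh* was 0.64 ± 0.16 higher than in WT (adjusted *P* = 0.040) and 1.07 ± 0.17 higher than in VAA (adjusted *P* = 0.0017). *Ppargc1a* was 1.16 ± 0.31 higher than in WT (adjusted *P* = 0.047) and 1.36 ± 0.31 higher than in VAA (adjusted *P* = 0.012). For all 4 genes each KO library was above each WT and VAA library with DSS, which describes genes picked by calls in these same libraries.

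The count of 4 in KO against WT was 0 without WT DSS library 1 or 2, 1 without KO DSS library 1, 2 without KO DSS library 3, either untreated WT library or either untreated VAA library, and 8 without VAA DSS library 3. Without the pair high in adipocyte markers it was 1, *Angptl4*, lower in KO by 3.21, and without both libraries with *Ddx3y* it was 2. Over 25 alternatives the call was kept in 22 for *Ucp2*, 21 for *Acsl3*, 12 for *Ehhadh* and 10 for *Ppargc1a*, and every log2 value stayed above 0, from 0.473 to 0.636, 0.649 to 0.815, 0.542 to 0.774 and 0.904 to 1.48 in that order.

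In KO against VAA the members called higher were 5 matrix enzymes, *Acadm* (0.77 ± 0.13, adjusted *P* = 0.0031), *Hadh* (0.95 ± 0.16, adjusted *P* = 0.0032), *Acads* (0.53 ± 0.12, adjusted *P* = 0.014), *Eci1* (0.67 ± 0.18, adjusted *P* = 0.025) and *Decr1* (0.53 ± 0.16, adjusted *P* = 0.038), with *Ech1* (0.53 ± 0.13, adjusted *P* = 0.014), *Crat* (0.44 ± 0.09, adjusted *P* = 0.0093) and *Ppara* (1.33 ± 0.27, adjusted *P* = 0.0070), beside *Ucp2*, *Acsl3*, *Ehhadh* and *Ppargc1a*. *Eci1* stood at 15.5 and 14.2 CPM in WT, 14.5 and 15.2 in VAA and 14.4 and 17.3 in KO untreated, and at 17.6, 14 and 13.6 in WT, 11.2, 12.6 and 8.35 in VAA and 14.6, 20.0 and 16.9 in KO with DSS. *Decr1* stood at 44.4 and 45.3 CPM in WT, 47.9 and 45.3 in VAA and 47.9 and 56.9 in KO untreated, and at 37.4, 28.6 and 36.1 in WT, 33.5, 36.6 and 23.9 in VAA and 50.7, 42 and 43.8 in KO with DSS. *Crat* stood at 43.1 and 42.3 CPM in WT, 44.1 and 41 in VAA and 44.6 and 46.4 in KO untreated, and at 42.8, 40.2 and 37.7 in WT, 36.5, 38.5 and 35.4 in VAA and 46.8, 50.5 and 52.2 in KO with DSS. Each of these 8 genes was higher in every KO library with DSS than in every VAA library with DSS. Since calls in the same libraries picked them, this describes the values and adds no support. Members that were not called, such as *Acaa2* and *Hadha*, were also without overlap.

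*Acsl4* was 0.72 ± 0.15 lower in KO than in VAA (adjusted *P* = 0.0083), and *Vnn1* was 1.67 ± 0.53 lower (adjusted *P* = 0.050), a call kept under 2 of 25 alternatives. The count of 14 was 9 without the pair high in adipocyte markers and 12 without VAA DSS library 3, and *Acadm*, *Hadh*, *Acsl3*, *Ehhadh* and *Ucp2* were called under all 25 alternatives. The call of *Eci1* was lost without VAA DSS library 3 or KO DSS library 2 or 3, that of *Acads* without KO DSS library 2, that of *Ech1* without KO DSS library 1, and that of *Decr1* without WT untreated library 2, either untreated VAA library, VAA DSS library 1 or 3 or any KO DSS library. Neither peroxisomal *Hsd17b4* (0.21 ± 0.11, adjusted *P* = 0.26) nor the trifunctional subunit *Hadha* (0.34 ± 0.14, adjusted *P* = 0.14) was called. *Angptl4*, at 0.543 and 0.520 CPM in KO libraries 1 and 3 and 8.53 in library 2, was not called against WT (-0.94 ± 0.76) or VAA (-1.35 ± 0.76), and without KO library 2 it was called in both at -3.52 and -3.93.

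Marker lists differed between the same groups. In KO against WT with DSS, 2 of 8 epithelial markers were called higher, *Epcam* and *Cdh1*, 4 of 6 distal Hox genes were higher, and 5 of 7 neutrophil markers were lower. In KO against VAA these counts were 5 higher, 4 higher and 6 lower. Of all genes, 5.67% were called in KO against WT and 15.4% in KO against VAA. The distal Hox sum was 480 to 498 CPM in KO, 288 to 357 in WT and 271 to 342 in VAA with DSS, against 425 to 512 in untreated libraries, and 0 of the 6 genes were at 0. Epithelial and neutrophil sums of the DSS groups are given above. Their part in the genotype differences, including position along the colon, was not tested.

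In VAA against WT with DSS, edgeR called 0 of 36 members, where 0.00572% of all genes were called. At an unadjusted *P* under 0.05 the count was 8 of 36, all lower in VAA, beside 2855 of all 17477 genes. DESeq2 and limma each called 0 members. The median was -0.19 against 0.028 for all genes. *Acadm* had the smallest *P*, at -0.49 ± 0.13 (adjusted *P* = 0.28), with VAA at 45.1 to 55.2 CPM and WT at 55.8 to 75.0 CPM, without overlap.

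Among untreated mice, edgeR called 0 members in KO against WT and 0 in VAA against WT, where 0% of all genes were called in each. At an unadjusted *P* under 0.05 these counts were 1, *Fabp2* (1.03 ± 0.44, adjusted *P* = 1), and 0, and DESeq2 and limma called 0 in both. Over all 17477 genes the unadjusted counts were 352 and 233. With 2 libraries a group, small differences could not be detected. Log2 values were above 0 for 31 of 36 members in KO against WT, with a median of 0.16, and for 23 of 36 in VAA against WT, with a median of 0.019, where the medians of all genes were -0.0027 and -0.0042. In the KO and WT groups 1 of the 2 libraries each was among those with *Ddx3y*.

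Whether the DSS effect in KO or VAA differed from that in WT was tested by the interaction. For KO against WT edgeR called 0 members, where 0% of all genes were called. At an unadjusted *P* under 0.05 the count was 5 members, beside 1736 of all 17477 genes. *Acsl3* had an interaction of 1.08 ± 0.22 (adjusted *P* = 0.23), *Ucp2* of 0.58 ± 0.17 (adjusted *P* = 0.30), *Ppargc1a* of 1.25 ± 0.49 (adjusted *P* = 0.42), *Ehhadh* of 0.56 ± 0.26 (adjusted *P* = 0.50) and *Eci2* of -0.50 ± 0.20 (adjusted *P* = 0.43). DESeq2 called *Acsl3* (1.06, adjusted *P* = 0.012) and *Ucp2* (0.57, adjusted *P* = 0.050), and limma called 0. For VAA against WT edgeR called 0, where 0% of all genes were called, and DESeq2 and limma called 0. There 3 members had an unadjusted *P* under 0.05, beside 1259 of all 17477 genes. The larger count of DSS calls in WT than in KO was therefore not shown gene by gene to be a difference between genotypes by edgeR. No interaction of KO against VAA was tested, so the larger count in VAA than in KO was not addressed.

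Over the 7 wider pathway lists, 4 of 101 genes were called in KO against WT with DSS, 2 higher and 2 lower (3.96%, against 5.67% of all genes), and 18 in KO against VAA, 15 higher and 3 lower (17.8%, against 15.4% of all genes). Of these, *Oxct1*, which uses ketone bodies, was 0.57 ± 0.15 higher in KO than in VAA with DSS (adjusted *P* = 0.023). *Acaa1a*, the peroxisomal thiolase named above, was 0.42 ± 0.10 higher in KO than in WT (adjusted *P* = 0.036) and 0.39 ± 0.10 higher than in VAA (adjusted *P* = 0.023). In the ketogenesis list, 4 genes tested, 1 was called lower in KO against WT (25%), and 2 higher and 1 lower against VAA (75%). For DSS, 0 were called in WT, 1 lower in VAA and in KO, and 2 lower (50%) in the average. Of all genes, 26.6%, 20.4%, 10.7% and 42.6% were called for DSS in that order.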

How the data were processed

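Total RNA of mouse colon was sequenced as paired ends of 76 bases in 15 libraries, grouped by the sample labels. For each gene symbol the authors deposited an estimated count, made with kallisto 0.46 on mm10 per the submitters' processing notes. Which transcripts were counted and how they were joined into genes was not given in the sources used here. All estimated counts as deposited were whole, and rounding changed 0 values. A further deposited table held log2 CPM of 17531 genes, from which log2 values recomputed from the counts differed by at most 0.0173. Among the deposited columns, 0 belonged to other samples, and 0 rows had no gene name.

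Low counts were removed with edgeR's filterByExpr given the 6 groups, libraries were scaled by TMM (trimmed mean of M values), and the counts were fitted with 1 mean per group over the 15 libraries (R 4.3.3, edgeR 4.0.16, quasi-likelihood, 9 residual degrees of freedom). The 11 comparisons were contrasts of these means, and *P* values were adjusted by the Benjamini-Hochberg method over 17477 genes, with a threshold of 0.05. Fold changes are log2, and CPM is the count per M of the scaled library. The standard error (SE) was worked back from the test, as the absolute fold change over the square root of the quasi-likelihood F statistic. Scripts were tested on simulated data.

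The members, the 7 further pathway lists (107 genes, 101 tested) and the 9 marker lists (58 genes, 53 tested) were chosen with earlier results of these data known. Values in every library are given for members called between genotypes, the 2 members of each role with the smallest *P* averaged over genotypes, the 3 regulators and the 3 peroxisomal members, and others are named by range. Gene lengths were the merged bases of all annotated exons in GENCODE M21 on mm10. They are not transcript lengths, so ranks per kilobase depend on the isoforms annotated. Alternatives were DESeq2 size factors, no filter, DESeq2 1.42.0, limma 3.58.1 on the log2 values, only the groups compared, a replicate block, sex as a covariate and leaving out each library. Leaving out the libraries with *Ddx3y*, those high in adipocyte markers, or the former with the shallowest DSS library, was chosen after seeing the data. Single gene counts per library carry counting error and this number of libraries limits the precision. Results of some genes of the further lists are not reported here.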

Additional observations from a re-analysis of the deposited data

How the results depend on the processing

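Counts of members called moved as follows, and no log2 value of a called member changed sign. For DSS in WT (12), leaving out both libraries with *Ddx3y* gave 6, and leaving out 1 library gave 6 to 14. For DSS in VAA (16), fitting only the groups compared gave 4, and leaving out 1 library gave 7 to 17. For DSS in KO (2), sex as a covariate, both libraries with *Ddx3y* left out and both adipocyte-high libraries left out each gave 0, DESeq2 gave 7, limma 6, only the groups compared 8, and the libraries with *Ddx3y* and the shallowest DSS library left out 4, and leaving out 1 library gave 0 to 9. For KO against WT with DSS (4), both libraries with *Ddx3y* left out gave 2, the adipocyte-high pair left out 1, and the libraries with *Ddx3y* and the shallowest left out 7, and leaving out 1 library gave 0 to 8. For KO against VAA with DSS (14), only the groups compared gave 5 and the adipocyte-high pair left out 9. For the KO interaction (0), DESeq2 gave 2 and only the groups compared 1. For VAA against WT with DSS (0), leaving out 1 library gave 0 to 1. The cause was not tested. With the replicate block the count was 5 for DSS in KO and 2 for KO against WT with DSS, and it stayed within 1.5 times elsewhere. Whether replicate numbers pair libraries, as a shared batch would, could not be told. Same-numbered libraries correlated at -0.16 to 0.31 over 33 pairs, 8 over 0.1, and 7 of 15 libraries were closest to their own number. Pairs with unlike numbers were not set beside them, so the check cannot decide. Groups of 2 or 3 libraries limit what could be detected, and genes under a few CPM, such as *Vnn1* and *Fabp2*, most of all.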
